A study of Mus musculus with 4 samples.

Results

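Cohesin and condensin are ring-shaped complexes that fold and hold chromosomes, and 10 of their mouse subunit genes were followed here in blood stem and progenitor cells. The members were chosen by name: the cohesin genes Smc1a, Smc3, Rad21, Stag1 and Stag2 and the condensin genes Smc2, Smc4, Ncapd2, Ncapg and Ncaph, under their current or an older symbol. All 10 were found, in 12 rows of the 30854 gene rows of the deposited table, because Smc4 also had a row under the older name 2500002A22RIK and Ncaph one under BRRN1. Only 6 of the 10 passed the detection filter used for testing (detection p under 0.05 on at least 2 of the 4 arrays).

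Expression was measured on 4 Illumina bead arrays of total RNA from sorted LSK cells, the marrow fraction without lineage antigens but with Sca-1 and Kit, which holds hematopoietic stem cells and early progenitors. The 2 control arrays carried the genotype label control, and the 2 knockout arrays the label B-myb floxed-MxCre, in which B-myb (now Mybl2), encoding a transcription factor of dividing cells, can be deleted by Cre recombinase from the interferon-induced Mx promoter. All mice were of strain C57BL6/J, aged 12 to 16 weeks, and both groups received pIpC, a double-stranded RNA that switches the Mx promoter on, 1 week before marrow was taken. Each array came from a pool of 3 to 5 mice, and the labels do not say whether control mice carried the floxed allele or Cre. Mx-Cre also acts in cells other than blood stem cells.

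Cohesin encircles DNA. Its arms are the ATPases encoded by Smc1a and Smc3, closed by the kleisin Rad21 and joined by either Stag1 or Stag2. It holds sister chromatids together until anaphase and extrudes interphase loops that stop at the insulator protein CTCF. Condensin compacts chromosomes for mitosis: Smc2 and Smc4 are its ATPases, and Ncaph (the kleisin), Ncapd2 and Ncapg complete condensin I, while Ncaph2, Ncapd3 and Ncapg2 complete condensin II. Condensin genes are typically expressed with the cell cycle and cohesin genes throughout it. STAG2 is a recurrent target of mutation in human myeloid neoplasms.

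The arrays differed in brightness and in composition. Median log2 signal of genes passing the filter, after background correction and before normalization between arrays, was 6.80 and 6.45 on the controls and 5.93 and 5.64 on the knockouts. Mybl2 was at log2 intensities of 7.19 and 6.52 in control pools against 6.72 and 6.62 in knockout pools (change −0.18 ± 0.28 SE, limma adjusted p = 0.776), and the place of its probes in the gene is not known, so genotype is taken from the labels alone. Of the gate's own genes Kit and Ly6a were detected in both genotypes. Kit averaged lower in the knockout (change −0.86 ± 0.21, adjusted p = 0.237). All 5 megakaryocyte markers were lower without overlap of the genotypes, as were 28.1% of all genes, and the summed level of that list was 1257 to 1345 in the controls and 393.9 to 434.2 in the knockouts. Neutrophil markers, of which 6 of 7 had a row, summed to 5266 and 7052 in the controls. The sums were 18940 for knockout replicate 1 and 7684 for replicate 3. In replicate 3 of the knockout, Mpo was the brightest of these genes and at its highest of the 4 arrays (log2 12.76). Camp, Ltf, Ngp, S100a8 and S100a9 were each at their lowest there (5.39, 6.34, 5.10, 8.69 and 7.34). Relative to each gene's control mean, the list median was −1.67 there, against 2.83 in the other knockout pool. The 4 T cell markers summed to 78.6 to 105.7 over the 4 arrays, with Cd8a not above background on any. Detection p was under 0.05 for 3 and 2 of them on the controls and 2 and 0 on the knockouts. Genes at background thus make up part or all of each sum. The erythroid list summed to 888.9 to 1488 on 3 arrays and 4126 on knockout replicate 3, the 3 B cell markers on the array to 259 to 360.2 and the 3 monocyte markers to 111 to 126.4 in the controls and 155.1 to 189.5 in the knockouts. The part of cell composition in the values that follow was not tested, and in bulk RNA fewer cells of a type and less RNA per cell cannot be told apart.

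None of the 6 tested subunits passed the adjusted test between genotypes, and the signal of several others could not be separated from background. Stag2 and Smc1a were modestly lower in both knockout arrays, Smc4 was higher in both, and Stag1, Ncapd2 and Ncaph had overlapping genotypes. In limma 0 of the 6 passed an adjusted p of 0.05, against 0% of the 11538 genes tested, and 1 of the 6, Smc4, had an unadjusted p under 0.05, against 15.3% of all genes. That gene was higher in the knockout (6.56% of all genes), and 0 of the 6 were lower at that p (8.77%). Of the 6, 5 had a negative change, against 53.6% of all genes, and 1 a positive change, against 46.4%. Their median change was −0.25, against −0.04 over all genes. Genotypes did not overlap in the lower direction for 2 of the 6 (28.1% of all genes) and in the higher direction for 1 (22%), together 3 of 6 against 50.1% of all genes. At an unadjusted p under 0.05, 757 genes were higher and 1012 lower, a split that was 20 to 4368 under median scaling, where the median of all genes was −0.70.

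**Figure D1:**
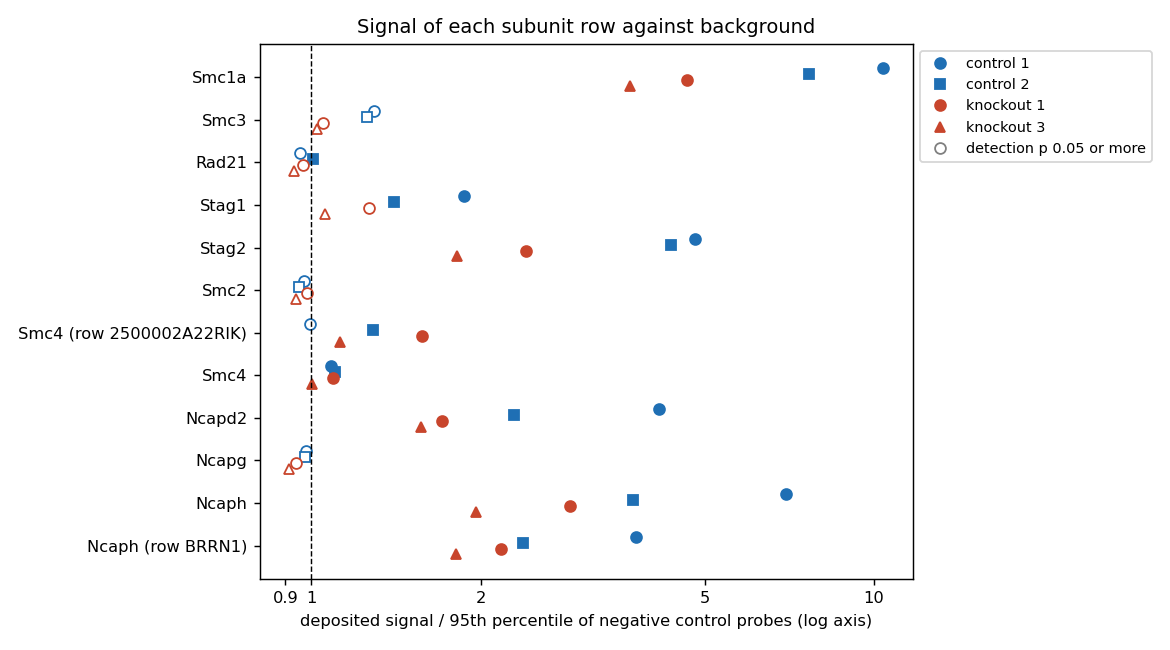
Deposited signal of each of the 12 subunit rows divided by the 95th percentile of the negative control probes of the same array, on a log axis, with 1 point per array (blue, controls; red, knockouts) and open points where the detection p was 0.05 or more. Smc1a, Stag2, Ncapd2 and both Ncaph rows lie well to the right of the dashed line at 1, while Rad21, Smc2 and Ncapg lie on it or to its left.

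How far each subunit stood above background set what could be read from it. The 95th percentile of the negative control probes was 94.8 and 85.3 in control pools against 101.5 and 112.8 in knockout pools. Smc1a had the highest ratio to it, 10.4 on control replicate 1 and 3.68 on knockout replicate 3. Ratios of different genes come from different probes and do not rank the genes by abundance.

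Smc1a, an ATPase arm of cohesin, gave a deposited signal of 984.5 and 654.3 in control pools (replicates 1 and 2) against 472.9 and 414.9 in knockout pools (replicates 1 and 3), the order kept below. After normalization its log2 intensity was 9.24 and 9.20 in control pools against 8.85 and 9.03 in knockout pools. Both knockout arrays were below both controls, and the controls lay closer together than the knockouts. The change was −0.28 ± 0.20, short of the threshold (95% confidence interval −0.77 to 0.22, adjusted p = 0.525). The deposited signal differed by more than the normalized value. Genes passing the filter were also dimmer on the knockout arrays after background correction and before normalization between arrays. Over the 14 alternatives the change was negative, from −1.11 under median scaling, where all genes had a median of −0.70, to −0.19 without knockout replicate 1. Alternatives of filter, variance model and rows left the value of Smc1a unchanged, so its sign could not turn in them.

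Stag2, the more often mutated of the alternative subunits that join the ring, was at log2 intensities of 7.97 and 8.20 in control pools against 7.70 and 7.62 in knockout pools. Both knockouts lay below both controls. The change was −0.42 ± 0.21 (95% confidence interval −0.93 to 0.08, adjusted p = 0.384), a level 1.34-fold higher in the control, and 17.6% of all genes had a more negative change. Without background correction its change was −0.32.

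Stag1, its alternative in the ring, was at 6.21 and 5.59 in control pools against 5.96 and 5.62 in knockout pools. The genotypes overlapped, and control replicate 1 was the highest array. The change of −0.10 ± 0.28 (95% confidence interval −0.81 to 0.60, adjusted p = 0.884) turned to 0.19 without control replicate 1 and to 0.07 without knockout replicate 3. Stag1 had a detection p under 0.05 on both controls, at 0.04998 and 0.03677, and on neither knockout (0.861 and 0.210). Its signals of 128.5 and 119.1 there were above the limit of the negative probes. Whether the changes of Stag2 and Stag1 differ was not tested.

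The remaining cohesin subunits were not tested. Rad21, the kleisin that separase cuts at anaphase, had signals of 90.5 and 85.9 in control pools against 98.1 and 105.3 in knockout pools. Only control replicate 2 was above background, with a detection p of 0.0385, and all 4 signals were near the level of the negative probes of their arrays. Smc3, the partner ATPase of Smc1a, had signals of 122.8 and 107.1 in control pools against 106.6 and 115.5 in knockout pools. Its detection p was 0.321 to 0.601 although each signal lay above the limit set by the negative probes of its array. Admitted on that signal limit, an alternative added after the data were seen, Smc3 had a change of −0.08 ± 0.22 (limma, adjusted p = 0.890). For the 3 tested cohesin genes the median change was −0.28 (−0.04 over all genes), with 3 of 3 lower (53.6% of all genes). Stag1, 1 of these 3, passed the filter through the control arrays only. The cohesin median was −0.19 with Smc3 included and −0.10 with no detection filter, where Rad21 changed by 0.02.

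**Figure D2:**
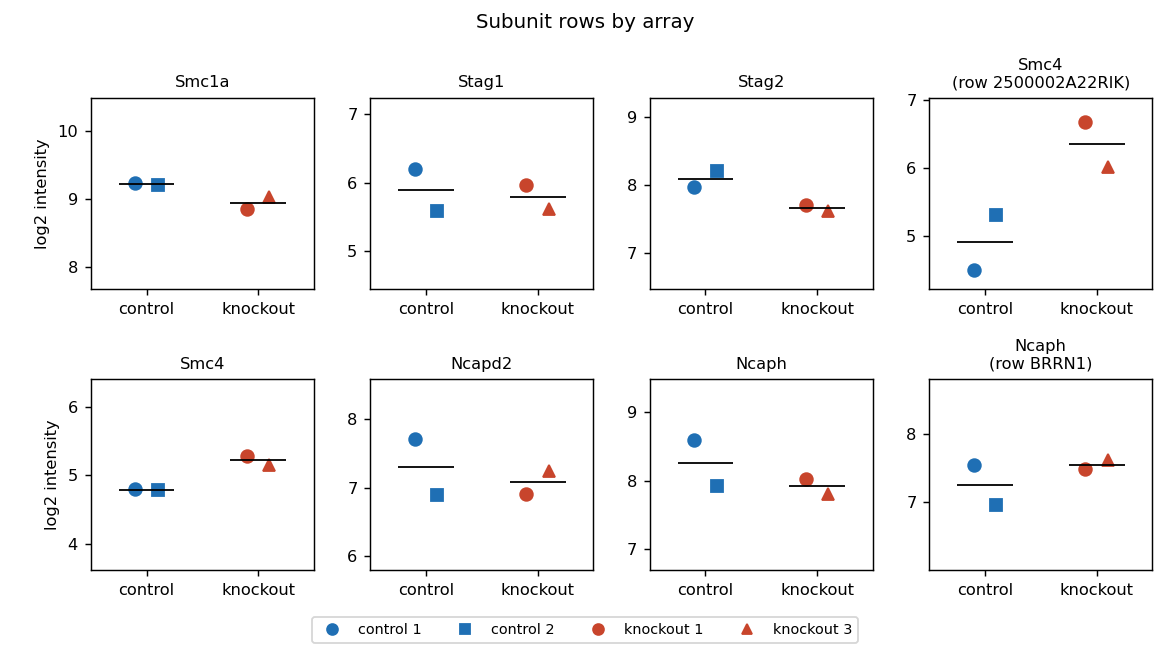
Normalized log2 intensity of the 8 rows of the 6 tested subunits, with 1 point per array and a bar at the mean of each genotype; every panel spans the same height on the log2 axis. Smc1a and Stag2 are lower and both Smc4 rows higher in the knockouts without overlap, while the 2 Ncaph rows differ in the direction of their means.

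Smc4, an ATPase shared by condensin I and II, was the subunit with the largest difference, and its rows gave different sizes. In the brighter row, 2500002A22RIK, the signal was 94.4 and 109.9 in control pools against 159.4 and 127 in knockout pools. These signals were 0.996 to 1.57 times the limit of the negative probes. The row was chosen by its mean over all 4 arrays, knockouts included. On control replicate 1 it lay 0.29 below the other row, and the control means of the 2 rows were 4.91 and 4.79. Its log2 intensity was 4.51 and 5.30 in control pools against 6.67 and 6.01 in knockout pools. Both knockouts were above both controls. Control replicate 1 was not above background, with a detection p of 0.0545. The change was 1.44 ± 0.36 (95% confidence interval 0.54 to 2.33), or 2.71-fold, with an unadjusted limma p of 0.00809 and an adjusted p of 0.244. Only 0.399% of all genes had a more positive change. It was 0.58 without background correction, 0.84 with the larger offset of 50 and 0.94 without control replicate 1, each a reduction by more than 1.5 times. Under median scaling it was 0.77, where the median of all genes was −0.70.

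In the row named SMC4 the log2 intensity was 4.80 and 4.79 in control pools against 5.29 and 5.16 in knockout pools. The direction was the same and the arrays did not overlap, but the change was 0.43, or 1.35-fold (adjusted p = 0.366 when this row was used instead, an alternative added after the data were seen). All 4 signals of that row, 94 to 113.3, were just above the limit of their arrays. Among the 579 genes with at least 2 rows past the filter, 4.66% had a larger disagreement between the changes of their rows than Smc4, and the median disagreement was 0.32.

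Smc2, the partner ATPase of Smc4, was at background, with signals of 92.1 and 81.2 in control pools against 99.9 and 106.1 in knockout pools. No array had a detection p under 0.05 and no signal passed the 95th percentile of the negative probes. Smc2 was thus not well above background in either genotype.

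Ncaph, the kleisin of condensin I, also had rows that disagreed. The row NCAPH was at log2 intensities of 8.59 and 7.91 in control pools against 8.02 and 7.81 in knockout pools, with control replicate 1 the highest array. Its change was −0.34 ± 0.28 (95% confidence interval −1.04 to 0.37, adjusted p = 0.588), and leaving out control replicate 1 gave 0.0056, control replicate 2 −0.69. The row BRRN1 was at 7.55 and 6.96 in control pools against 7.48 and 7.62 in knockout pools, with overlapping genotypes and a change of 0.29 (adjusted p = 0.611 when used instead). The first row exceeded the second by 1.04 and 0.95 in the controls and by 0.54 and 0.19 in the knockouts. Both rows were above background on every array. Opposite signs were found for 42% of the 579 genes with several rows, and 20.7% had a larger disagreement than Ncaph.

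Ncapd2, a HEAT-repeat subunit of condensin I, was at 7.71 and 6.88 in control pools against 6.91 and 7.25 in knockout pools. Control replicate 1 was again the highest and control replicate 2 the lowest array. The change was −0.22 ± 0.33 (95% confidence interval −1.03 to 0.59, adjusted p = 0.770), moving to 0.19 and −0.65 with control replicates 1 and 2 left out in turn. Ncapg, the other HEAT-repeat subunit, had signals of 92.7 and 83.1 in control pools against 95.3 and 103.2 in knockout pools, none above background. The median change of the 3 tested condensin genes was −0.22 (−0.04 over all genes), with 1 higher (46.4% of all genes) and 2 lower (53.6%). That median too was 0.19 or −0.65 when one or the other control was left out.

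The control arrays themselves differed in several subunits and related genes. Control replicate 1 exceeded control replicate 2 by 0.82 in Ncapd2, 0.68 in Ncaph and 0.62 in Stag1, and by 0.04 in Smc1a, so that it was the higher control in 2 of 3 genes of either complex. It was the higher control in 12 of the 13 tested genes of a mitotic reference list (median difference 0.84), against 56% of all genes (median 0.05). It was also the higher one in 6 of 6 SMC5/6 genes (median 0.18), 9 of 11 cohesin regulators (0.22), 5 of 6 chromosome structure partners (0.58) and 2 of 3 condensin II genes (0.45). The median of the mitotic list relative to each gene's control mean was 0.42 and −0.42 on the controls and −0.01 and −0.23 on the knockouts, and that of the condensin genes was 0.34, −0.34, −0.23 and −0.05. The medians of the cohesin genes were at 0.02 and −0.02 on the controls and −0.37 and −0.28 on the knockouts. In the brighter row of Smc4, and in Stag2, control replicate 1 was the lower control.

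**Figure D3:**
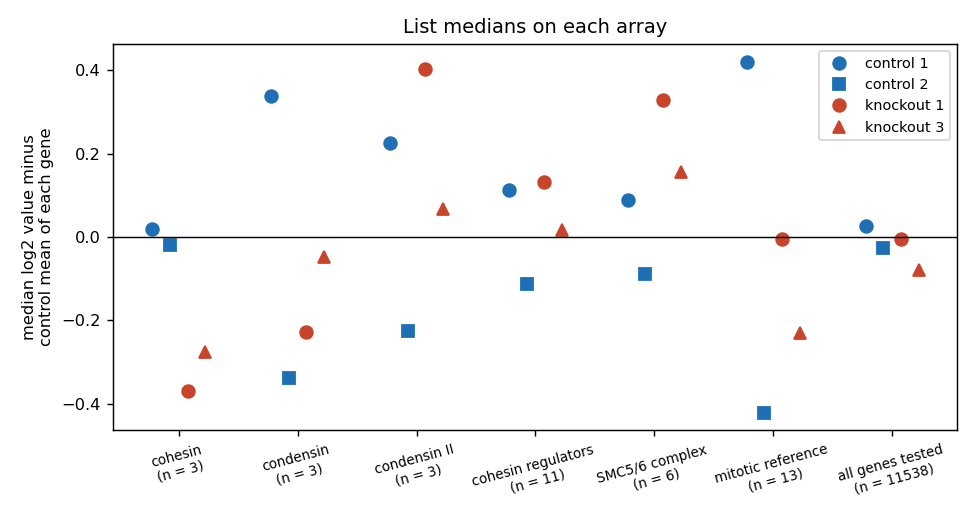
Median over the tested genes of each list of the log2 value minus that gene's control mean, with 1 point per array. The control arrays lie apart for the condensin and mitotic lists, at 0.34 and −0.34 and at 0.42 and −0.42, and together for the cohesin list, where both knockout arrays lie lower.

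Promoter letters are shown for condensin genes because the MuvB complex, which B-Myb joins, reaches mitotic genes through a short element named CHR, often beside CCAAT boxes. Windows of 300 bases (250 before to 50 after a start) came from RefSeq, GRCm38.p6, and 7 of the 10 members had one. Rad21, Stag2 and Smc4 had no entry. TTTGAA or TTTAAA, the letters of the CHR, occurred on either strand in 3 of the 4 condensin and 0 of the 3 cohesin windows. The 3 were those of Smc2, Ncapd2 and Ncapg, all as TTTGAA. These letters occurred in 27.6% of all 32851 windows, which cover 27025 genes. In the mitotic list 11 of the 12 genes with a window had them in any of their windows, a count of genes and not of windows. CCAAT occurred in 3 of the 4 condensin and 2 of the 3 cohesin windows and in 37.4% of all. The Myb core AACNG was found in 6 of the 7 and in 80.3% of all windows, and TTNNCGC, letters like those of an E2F site, in 6 of the 7 and in 20.2% of all. The other strand was searched for each motif, and matches of different motifs may overlap.

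The windows holding TTTGAA are printed with those letters and CCAAT, on either strand, in capitals. The windows of Ncapd2, Ncapg and Smc2 lie at chr6:125191537-125191836 (minus strand), chr5:45669675-45669974 (plus strand) and chr4:52438971-52439270 (plus strand). The Ncapd2 window has 3 CCAAT matches and the others 1 each, and the Smc2 window has 2 TTTGAA matches. The Smc1a window, at chrX:152016178-152016477 (plus strand), is added as a cohesin promoter with CCAAT and no TTTGAA.
Ncapd2: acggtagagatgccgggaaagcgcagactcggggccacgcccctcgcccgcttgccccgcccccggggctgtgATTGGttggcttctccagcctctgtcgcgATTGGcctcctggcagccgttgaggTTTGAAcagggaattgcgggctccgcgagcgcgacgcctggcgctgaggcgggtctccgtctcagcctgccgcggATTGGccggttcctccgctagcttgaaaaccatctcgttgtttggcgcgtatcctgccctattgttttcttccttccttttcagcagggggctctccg
Ncapg: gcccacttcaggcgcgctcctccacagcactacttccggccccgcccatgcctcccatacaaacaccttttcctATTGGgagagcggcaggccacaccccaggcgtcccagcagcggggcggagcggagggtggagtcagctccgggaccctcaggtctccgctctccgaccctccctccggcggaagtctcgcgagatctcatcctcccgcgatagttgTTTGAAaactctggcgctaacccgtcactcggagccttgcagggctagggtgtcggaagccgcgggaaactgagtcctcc
Smc2: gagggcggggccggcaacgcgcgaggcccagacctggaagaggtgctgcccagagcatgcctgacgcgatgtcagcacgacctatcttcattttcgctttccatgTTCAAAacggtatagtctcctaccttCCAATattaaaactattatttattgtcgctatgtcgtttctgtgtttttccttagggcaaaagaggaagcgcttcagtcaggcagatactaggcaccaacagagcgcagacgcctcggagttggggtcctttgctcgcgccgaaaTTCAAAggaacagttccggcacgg
Smc1a: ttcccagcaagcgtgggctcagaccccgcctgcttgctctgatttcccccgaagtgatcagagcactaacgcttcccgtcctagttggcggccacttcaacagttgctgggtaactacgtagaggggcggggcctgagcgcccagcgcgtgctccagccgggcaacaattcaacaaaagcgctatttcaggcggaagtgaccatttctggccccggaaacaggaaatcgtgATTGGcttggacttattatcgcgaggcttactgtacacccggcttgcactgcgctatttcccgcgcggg
Of the 3 genes with TTTGAA, only Ncapd2 was measured above background, with overlapping genotypes. A match describes letters in the window and is not a bound site.

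Genes that load, release and protect cohesin were described as a list of 14, chosen like all lists here with earlier results of these data known. Of the 11 tested, 6 were higher (46.4% of all genes) and 5 lower (53.6%), with a median change of 0.20 (−0.04 over all genes). In limma 0 passed the adjusted threshold (0% of all genes) and 0 had an unadjusted p under 0.05 (15.3%). Cdca5, which encodes sororin, the protector of cohesin in G2, was at 7.31 and 6.56 in control pools against 7.60 and 7.41 in knockout pools (change 0.57 ± 0.30, adjusted p = 0.411). Pds5b, a regulator of cohesin release, had a change of 0.40 ± 0.25 (adjusted p = 0.478) and Pttg1, the separase inhibitor securin, a change of −0.28 ± 0.19 (adjusted p = 0.518). The knockouts lay above both controls in Cdca5 and Pds5b and below them in Pttg1, which was not above background in the knockout and had a change of −0.09 without background correction and −0.11 with the offset of 50. Leaving out control replicate 1 or 2 moved Cdca5 to 0.91 or 0.20, and Pds5b ranged from 0.18 without knockout replicate 1 to 0.60 without knockout replicate 3. Under median scaling the changes of Cdca5 and Pds5b were −0.43 and −0.50, both above the median of all genes at that scaling, −0.70. The loader gene Nipbl was at 7.54 and 8.60 in control pools against 8.46 and 8.09 in knockout pools, with control replicate 1 the lowest array.

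Rec8, the kleisin that replaces Rad21 in meiosis, had a larger change than any of the 6 tested subunits. Its log2 intensity was 7.47 and 7.93 in control pools against 5.92 and 6.12 in knockout pools. Both knockout arrays were far below both controls, and all 4 arrays were above background. The change was −1.68 ± 0.24 (95% confidence interval −2.28 to −1.08), 3.21-fold higher in the control, with an unadjusted limma p of 0.000543 and an adjusted p of 0.169. It was −1.02 without background correction, and −1.48 to −1.84 with single arrays left out. Under median scaling, where all genes had a median of −0.70, it was −2.58 and passed (adjusted p = 0.0235). Of the other meiotic subunits Stag3 was at 6.08 and 5.43 in control pools against 6.04 and 5.47 in knockout pools, without a difference beyond the spread of arrays (−0.0023 ± 0.32, adjusted p = 0.998), and Smc1b was at background.

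The subunits particular to condensin II (Ncapd3, Ncapg2 and Ncaph2), which is nuclear in interphase, were all above background. Older-name rows of Ncapd3 and Ncapg2 were not. Ncapd3 was at 9.28 and 8.83 in control pools against 9.58 and 9.16 in knockout pools (change 0.32 ± 0.26, adjusted p = 0.581). Ncapg2 was at 5.34 and 5.35 against 5.75 and 5.41 (0.24 ± 0.22, adjusted p = 0.621) and Ncaph2 at 8.25 and 7.54 against 7.90 and 7.89 (−0.0040 ± 0.29, adjusted p = 0.996). Only Ncapg2 had genotypes that did not overlap, and the changes of Ncapd3 and Ncapg2 were both −0.50 under median scaling, above the median of all genes of −0.70. Ncapd3 moved to 0.55 or 0.087 without control replicate 1 or 2 and to 0.11 or 0.52 without knockout replicate 1 or 3, and Ncapg2 to 0.070 without knockout replicate 1 and 0.44 without knockout replicate 3. The median change was 0.24 for condensin II and −0.22 for the tested condensin genes of the main set, a difference that was not tested.

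In the related SMC5/6 complex, which acts in DNA repair, 5 of 6 tested genes were higher (46.4% of all genes), with a median of 0.23 (−0.04 over all genes). The 5 include Slf1, with a change of 4e-04 ± 0.27 and overlapping genotypes. In limma 0 passed the adjusted threshold and 1 was higher at an unadjusted p under 0.05 (6.56% of all genes). Nsmce2, its SUMO ligase, was at 7.63 and 7.47 in control pools against 8.04 and 8.33 in knockout pools, above both controls (change 0.64 ± 0.22, with an unadjusted limma p of 0.0269 and an adjusted p of 0.283). Slf2, which links the complex to damaged DNA, had a change of 0.25 ± 0.20 (adjusted p = 0.579) and Smc5, its ATPase, one of 0.30 ± 0.32 (adjusted p = 0.677). Under median scaling the changes of Nsmce2, Slf2 and Smc5 were −0.30, −0.71 and −0.70, against −0.70 for the median of all genes.

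Partners in chromosome structure and mitotic genes had no common direction. Of 6 tested partners 4 were higher (46.4% of all genes) and 2 lower (53.6%), with a median of 0.15 (−0.04 over all genes). In limma 0 passed the adjusted threshold (0% of all genes) and 0 had an unadjusted p under 0.05 (15.3%). The chromokinesin gene Kif4 had a change of −0.34 ± 0.34 (adjusted p = 0.651). Smchd1, of X inactivation, had one of 0.20 ± 0.25 (adjusted p = 0.721) and Akap8 one of 0.22 ± 0.36 (adjusted p = 0.792). Of 13 mitotic genes 7 were higher and 6 lower, against the same shares of all genes, with a median of 0.03 and likewise 0 by either measure in limma. Birc5, which encodes survivin of the chromosomal passenger complex, had a change of 0.75 ± 0.35 (adjusted p = 0.371), the centromeric histone gene Cenpa one of −0.41 ± 0.30 (adjusted p = 0.535) and the kinetochore gene Cenpf one of −0.54 ± 0.26 (adjusted p = 0.389). Cenpf was at 5.05 and 5.15 in control pools against 4.87 and 4.26 in knockout pools, where its detection p was over 0.05, and its change was −0.17 without background correction, −0.24 with the offset of 50 and −0.28 without knockout replicate 3. Leaving out control replicate 1 or 2 moved Birc5 to 1.24 or 0.27 and Cenpa to −0.03 or −0.80.

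**Figure D4:**
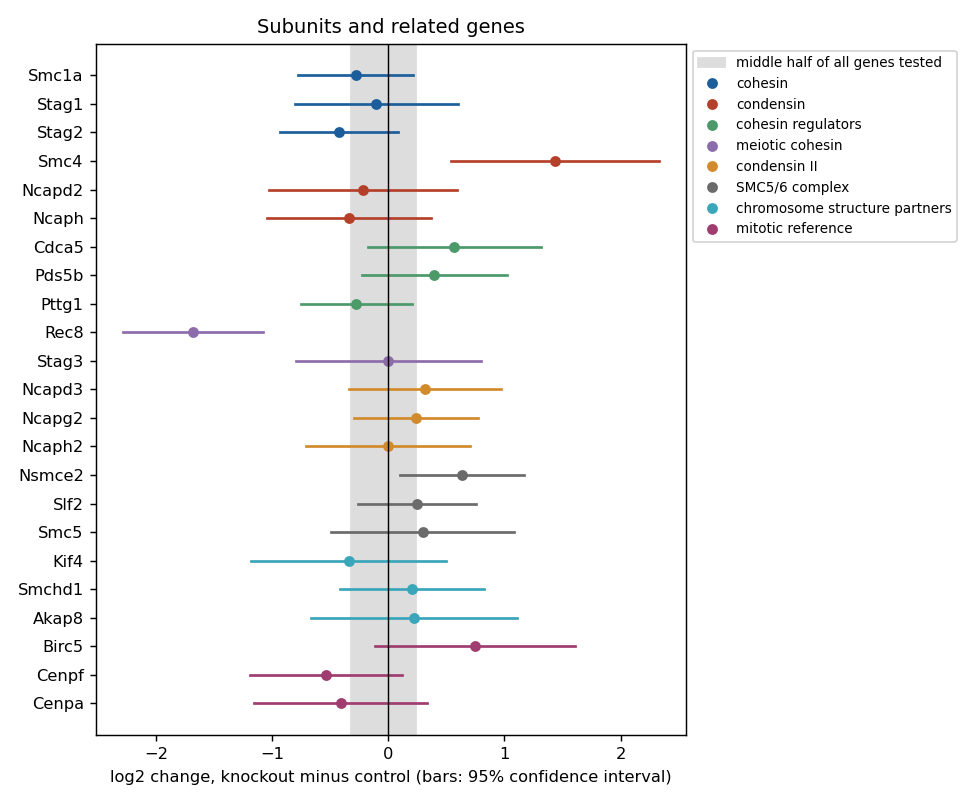
Log2 change, knockout minus control, with its 95% confidence interval from limma, for the 6 tested subunits and the 17 related genes named by rule; the grey band holds the middle part of the changes of all 11538 genes, from the lower to the upper quartile. Smc4, Rec8 and Nsmce2 are the genes whose interval leaves out 0, and none of the genes shown passed the adjusted threshold; under median scaling, with all genes at a median of −0.70, Nsmce2 was at −0.30.

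The mean centred profile of the cohesin members over the 4 arrays, 0.21 and 0.06 in control pools against −0.09 and −0.18 in knockout pools, was closest to Camk2n1 (root mean square distance 0.00562), Rttn (0.00795), E230013M07RIK (0.0120), Atp5mpl (0.0128) and Emc10 (0.0129). That of the condensin members, −0.03, −0.26, 0.24 and 0.06, was closest to 4933403O12RIK (0.0140), Epb41l2 (0.0159), Gnb1 (0.0183), Eif4a1 (0.0184) and SCL0001379.1_70 (0.0207). Over 4 arrays such likeness is common: 3605 genes lay within 0.2 of the cohesin profile and 2850 within 0.2 of the condensin profile. The condensin mean profile was higher in the knockouts through Smc4, with a change of 1.44. Ncapd2 (−0.22) and Ncaph (−0.34) changed the other way, so that profile does not describe each member. Among the members themselves the nearest profiles were those of Stag1 and Ncaph (distance 0.126) and of Smc1a and Stag2 (0.152), and Smc4 was at 0.926 to 1.07 from each of the others.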

How the data were processed

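Total RNA was measured on 4 bead arrays, and samples were grouped by title. The deposited gene table held intensity values that the authors had neither background-subtracted nor normalized, per the file headers and values, with a detection p-value, a bead standard error and a bead number per gene name. The sources used here do not give the array type, the software or how probes were combined. A second deposited table, of probe identifiers, was not used. 1 row of annotation text was left out. Names were updated through RefSeq (GRCm38.p6): 16223 rows matched a current symbol, 5684 an older symbol, 868 a gene identifier and 8079 none.

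Signals were corrected with 936 negative control probes with neqc (limma 3.58.1, R 4.3.3: normexp, offset 16, quantile, log2). Genes with a detection p under 0.05 on at least 2 arrays were kept, with the row of highest mean over the 4 arrays, which left 11538. Knockout minus control was fitted with lmFit and eBayes, two-sided, with Benjamini-Hochberg adjustment over these genes at 0.05, after testing on simulated data. Errors after ± are moderated standard errors from eBayes, which draws the variance of each gene toward that of all genes, with 2 pools per genotype. Every adjusted p is from this fit unless another setting is named. Array number limits the precision.

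The members and lists were chosen with earlier results of these data known. Named genes are all members, the 3 genes of each list with the lowest p (Nipbl and Slf1 were added after their values were seen), and the 5 nearest profiles. Alternatives varied background, offset, normalization, filter, variance model, rows and arrays.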

Additional observations from a re-analysis of the deposited data

How the results depend on the processing

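No paired analysis was possible because the genotypes share only replicate number 1. Over 14 alternatives, 0 of the 6 tested subunits passed the adjusted threshold, with a lowest adjusted p of 0.0508 (Stag2 under median scaling), and 78 of 83 values kept their direction. Changes of the filter or the variance model left most of these values as they were. Changes of rows did so in genes with 1 row, so many directions could not turn. Genes past the threshold numbered 3 with cyclic loess, 940 with median scaling, 17 with detection on all 4 arrays and 15 with trend and robust eBayes. The cohesin median of −0.28 was −0.25 without background correction, −1.11 with median scaling, −0.35 with detection on all 4 arrays, −0.10 with no detection filter, −0.19 with the negative probe limit (added after seeing the data) and −0.37 to −0.26 with single arrays left out. The condensin median of −0.22 was −1.22 with median scaling, −0.02 with the mean of rows, −0.06 with no detection filter, 0.29 with the dimmer rows of Smc4 and Ncaph (added after seeing the data) and −0.65 to 0.19 with single arrays left out. Median scaling left the genes passing the filter low on the knockout arrays, with a median change of −0.70. At that scaling Cdca5 was at −0.43, Pds5b at −0.50, Ncapd3 at −0.50, Ncapg2 at −0.50 and Nsmce2 at −0.30. Slf2 was at −0.71, Smc5 at −0.70, Smchd1 at −0.71, Akap8 at −0.71 and Birc5 at −0.093. Directions that turned with single arrays left out, where the lone array of a genotype is assumed to vary like the others, were those of Stag1 (−0.41 to 0.19), Ncapd2 (−0.65 to 0.19), Ncaph (−0.69 to 0.0056; 0.29 with its dimmer row), Stag3 (−0.33 to 0.31; 0.0259 with cyclic loess), Ncaph2 (−0.37 to 0.34), Smc5 (−0.10 to 0.65), Kif4 (−0.83 to 0.12) and Akap8 (−0.22 to 0.67). The cause of these shifts was not tested. Signal over background limits Rad21, Smc2, Smc3 and Ncapg, and 2 arrays per genotype limit the rest.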
